A study of Mus musculus with 24 samples.

Results

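The genes described here are 10 that build, fill or move the melanosome, the pigment organelle of melanocytes: Tyr, Tyrp1, Dct, Pmel, Mlana, Slc45a2, Oca2, Rab27a, Gpnmb and Mlph. They were chosen by name, as 10 of 21900 protein-coding genes. For each gene, the CUT&RUN peaks within 1 kb of either gene end (gene-end peaks) and within the gene plus 20 kb on each side (locus peaks) were taken from 22 peak lists. In CUT&RUN an antibody directs a nuclease to its target and the released DNA is sequenced, so a peak marks where a protein or histone mark was found. All 10 genes were present in the gene table.

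Cells of 2 mouse melanoma lines were profiled. Line 971 is described as WT for Kmt2d and line 493 as Kmt2d mutant. Both were cultured in DMEM/F12 medium with serum and antibiotics, and no treatment is named. The labels name neither the mutation nor the strain, the tumour drivers or the passage of the lines, and peak lists hold no sequence, so the mutation was not checked here. The WT line gave 10 lists (H3K4me3, Menin, TFAP2A, UTX, ARID1A, SMARCC1, ARID2, PBRM1, BRD9 and KMT2D), and the mutant line gave 12, with the first 9 of these targets, TFAP2B, and SOX10 with 2 antibodies (T and U). A single library (1 per line and target) allows neither a test nor a replicate check, and effects of genotype and of other properties of a line cannot be told apart, since each genotype has 1 line. A gene is called present in a list where a peak lies in its window, and the share of all protein-coding genes called in the same way is printed beside the counts of members in a list.

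Melanin is made inside melanosomes by tyrosinase (Tyr), the rate-limiting enzyme, and by its relatives Tyrp1 and Dct. It is laid down on fibrils formed from Pmel, while ion and proton transport by Oca2 and Slc45a2 sets conditions for the enzymes, and Rab27a with melanophilin (Mlph) ties mature melanosomes to the actin motor myosin Va (Myo5a). MITF and SOX10 are well-known activators of these genes in melanocytes, and MITF binds an extended E-box called the M-box. H3K4me3 marks active or poised promoters. KMT2D methylates H3K4 mainly at enhancers, in a complex that also holds UTX. ARID1A and SMARCC1 belong to the SWI/SNF remodellers, Menin belongs to the KMT2A and KMT2B complexes, and TFAP2A is a transcription factor of the neural crest lineage.

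The promoters are shown first because the members separated by what lay at their starts. Tyr, Tyrp1 and Dct had no H3K4me3 peak there in either line, while Gpnmb and Mlph had one in both lines and Rab27a a weak one in the mutant line alone. Sequences are from RefSeq on GRCm38.p6, the assembly of mm10, and end at the base before the gene unless stated otherwise. A promoter window of 300 bases was listed for 7 members (8 windows, since Rab27a has 2 listed starts). Capitals mark motifs on either strand: the M-box GTCATGTG, the E-boxes CATGTG and CACGTG, the SOX motif ACAAAG and the TFAP2 motif GCCNNNGGC. The M-box contains CATGTG, so each M-box also counts as that E-box. The Tyr stretch is chr7:87493513-87493762 (minus strand), the Dct stretch chr14:118052247-118052496 (minus strand) and the Tyrp1 stretch chr4:80833963-80834122 (plus strand). The Tyrp1 site around its M-box is chr4:80834154-80834183.
Tyr: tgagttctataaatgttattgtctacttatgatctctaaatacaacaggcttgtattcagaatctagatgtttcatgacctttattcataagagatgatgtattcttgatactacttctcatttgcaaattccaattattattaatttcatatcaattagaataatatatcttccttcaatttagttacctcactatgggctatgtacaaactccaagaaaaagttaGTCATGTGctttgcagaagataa
Tyrp1: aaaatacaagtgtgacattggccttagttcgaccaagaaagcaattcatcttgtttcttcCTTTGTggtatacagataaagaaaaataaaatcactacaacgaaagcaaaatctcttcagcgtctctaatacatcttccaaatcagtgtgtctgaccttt
Tyrp1 M-box: gtggggagggaGTCATGTGctgcctagtag
Dct: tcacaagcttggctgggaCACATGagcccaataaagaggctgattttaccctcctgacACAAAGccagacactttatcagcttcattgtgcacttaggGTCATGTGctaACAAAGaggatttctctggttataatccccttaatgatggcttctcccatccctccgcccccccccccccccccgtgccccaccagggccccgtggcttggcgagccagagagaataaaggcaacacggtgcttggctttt
The M-box began 23 bases before the listed start of Tyr, 48 before that of Tyrp1 and 152 before that of Dct. It was in 3 of 8 member windows and in 178 of 21263 windows of all genes (0.837%). The M-box was looked for because of its known link to pigment genes, so this count is a description and not a test of enrichment. CATGTG was in 4 of the member windows (Tyr, Tyrp1, Dct and Oca2) and in 11.5% of all windows. ACAAAG was also in 4 (Tyrp1, Dct, Oca2 and Gpnmb), against 16.8% of all windows. A match describes the letters and is not evidence that a factor was bound, and no member start carried a SOX10 peak.

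The stretches of the 3 genes with H3K4me3 at their starts are chr9:73044560-73044809 for Rab27a, chr6:49036268-49036517 for Gpnmb and chr1:90914850-90915023 for Mlph, with the Mlph E-box site at chr1:90915040-90915069, all on the plus strand.
Rab27a: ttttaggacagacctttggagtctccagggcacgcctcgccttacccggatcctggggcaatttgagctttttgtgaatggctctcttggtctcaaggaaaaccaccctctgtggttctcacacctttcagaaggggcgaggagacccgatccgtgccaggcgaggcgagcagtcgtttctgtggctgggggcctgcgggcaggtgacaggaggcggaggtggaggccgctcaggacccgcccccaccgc
Gpnmb: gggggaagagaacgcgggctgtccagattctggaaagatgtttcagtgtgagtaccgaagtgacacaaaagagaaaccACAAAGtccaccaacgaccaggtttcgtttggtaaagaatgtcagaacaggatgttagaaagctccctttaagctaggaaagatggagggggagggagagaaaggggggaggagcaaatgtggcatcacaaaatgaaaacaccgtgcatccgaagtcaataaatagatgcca
Mlph: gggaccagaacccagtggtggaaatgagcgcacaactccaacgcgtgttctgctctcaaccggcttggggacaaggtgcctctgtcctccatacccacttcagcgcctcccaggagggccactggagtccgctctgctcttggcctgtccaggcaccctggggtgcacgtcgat
Mlph E-box: tcaggagtagccCACGTGatctgagccgca
None of these held an M-box. CACGTG, in 7.84% of all windows, began 48 bases before the listed start of Mlph, and it was also in the second Rab27a window, 246 bases before that start. GCCNNNGGC, in 19.9% of all windows, was in the Gpnmb window alone among the members, starting 4 bases before the start and so not whole in the printed stretch. Base composition differed too: G and C made up 31.0% of the Tyr window, 42.3% of that of Tyrp1, 47.7% of that of Gpnmb, 53.3% of that of Dct, 61.3% of the first Rab27a window and 64.3% of that of Mlph, with a median of 56.3% over all windows. The Tyr window held 0 CpG, the Tyrp1 window 3 and the Dct window 5, while the Mlph window held 15 and the first Rab27a window 18, against a median of 13. The H3K4me3 split did not follow this throughout: the Gpnmb window, with H3K4me3, held 9 CpG, and the Oca2 window, with no peak and no M-box, had 54.0% G and C and 2 CpG.

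Around the 10 genes the 9 targets profiled in both lines gave 31 locus peaks in WT cells and 55 in mutant cells. All 22 lists together gave 93. By gene, the WT and mutant counts were 0 and 2 at Tyr, 0 and 3 at Tyrp1, 1 and 1 at Dct, 7 and 13 at Pmel, 1 and 0 at Mlana, and 8 and 8 at Slc45a2. Oca2 had 0 and 0, Rab27a 2 and 6, Gpnmb 3 and 6, and Mlph 9 and 16. The mutant line had more locus peaks at 6 members (42.9% of all genes), fewer at 1, Mlana (20.6%), and as many at 3. The median per member was 1.5 peaks in WT cells and 4.5 in mutant cells, against 4 and 5 per protein-coding gene. The mutant lists were called at 1.58 to 2.37 times the depth of the WT lists, except SMARCC1 at 0.394 times, and held 90720 peaks against 84374 for the 9 targets. Scaling each deeper list down to the depth of the other removed 1 of the 55 mutant peaks, a weak TFAP2A peak by Malsu1, and 0 of the 31 WT peaks. Scaled fragments were kept as fractions, while the caller's −log10 p was read on whole fragments, which favours keeping weak peaks. Some kept peaks were close to the limit, such as Menin in Gpnmb (−log10 p of 3.97 against 3.91). The number removed is thus a lower limit, and the part of depth in the counts was not tested further.

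**Figure D1:**
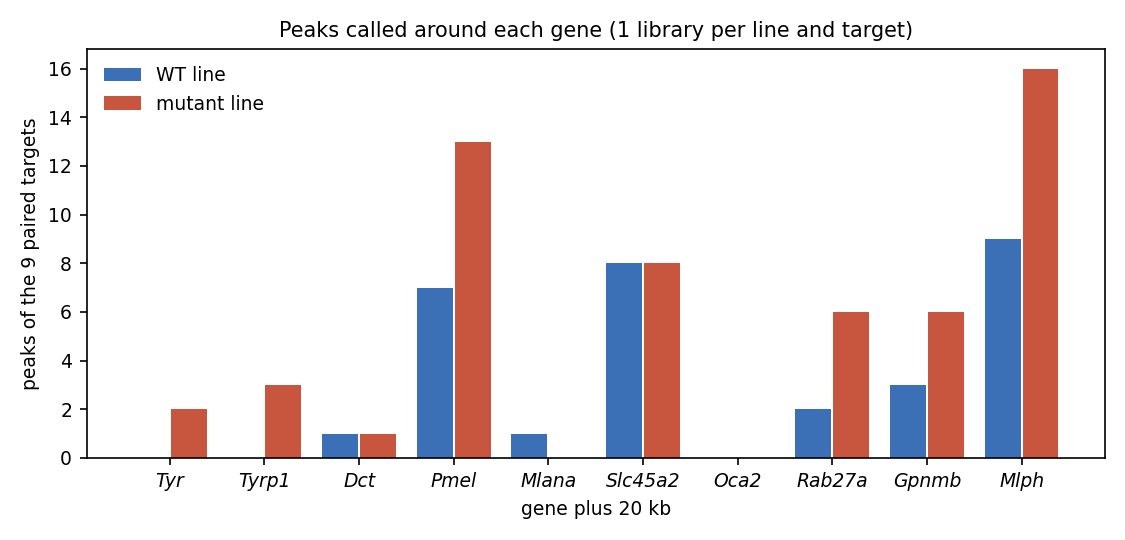
Number of peaks (y axis) of the 9 targets profiled in both lines within each gene plus 20 kb (x axis), WT line in blue and mutant line in red, 1 library per line and target and so no error bar. Mlph (9 and 16) and Pmel (7 and 13) held the most, and Oca2 held none in either line.

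H3K4me3 lay at a gene end of 3 members in the WT line, Pmel, Gpnmb and Mlph (49.3% of all genes), and of 4 in the mutant line, with Rab27a added (53.8%). The first 3 thus had it in both lists (48.7%). A gene-end peak of any of the 9 targets was found at the same number of members, 3 in WT cells (51.6%) and 4 in the mutant line (55.8%). A locus peak of any of them was found at 7 members in WT cells (71.8%) and 8 in mutant cells (74.6%). Tyr and Tyrp1 had such peaks in the mutant line alone (4.44%) and Mlana in the WT line alone (1.6%). H3K4me3 itself reached 6 loci (63.9%) and 7 (67.7%). Among single targets, ARID1A reached 4 loci in WT cells (49.8%) and 7 in the mutant line (54.8%), and UTX reached 3 (34.3%) and 5 (31.6%). TFAP2A reached 3 (46.9%) and 5 (58%), and Menin reached 3 (48.2%) and 5 (53.9%). SMARCC1 ran the other way, with 2 loci in WT cells (28.2%) and 1 in the shallower mutant list (10%). ARID2 reached 1 locus, Pmel, in both lines (3.63% and 2.47%), and TFAP2B, profiled in the mutant line, reached 2, Pmel and Slc45a2 (40.8%). The short PBRM1 lists (3.81% and 4.17%) and BRD9 lists (0.84% and 0.11%) had no peak at any member. KMT2D, profiled in the WT line, lay at 1 gene end, that of Pmel (10.2%), and in 2 loci, Pmel and Slc45a2 (27.7%).

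**Figure D2:**
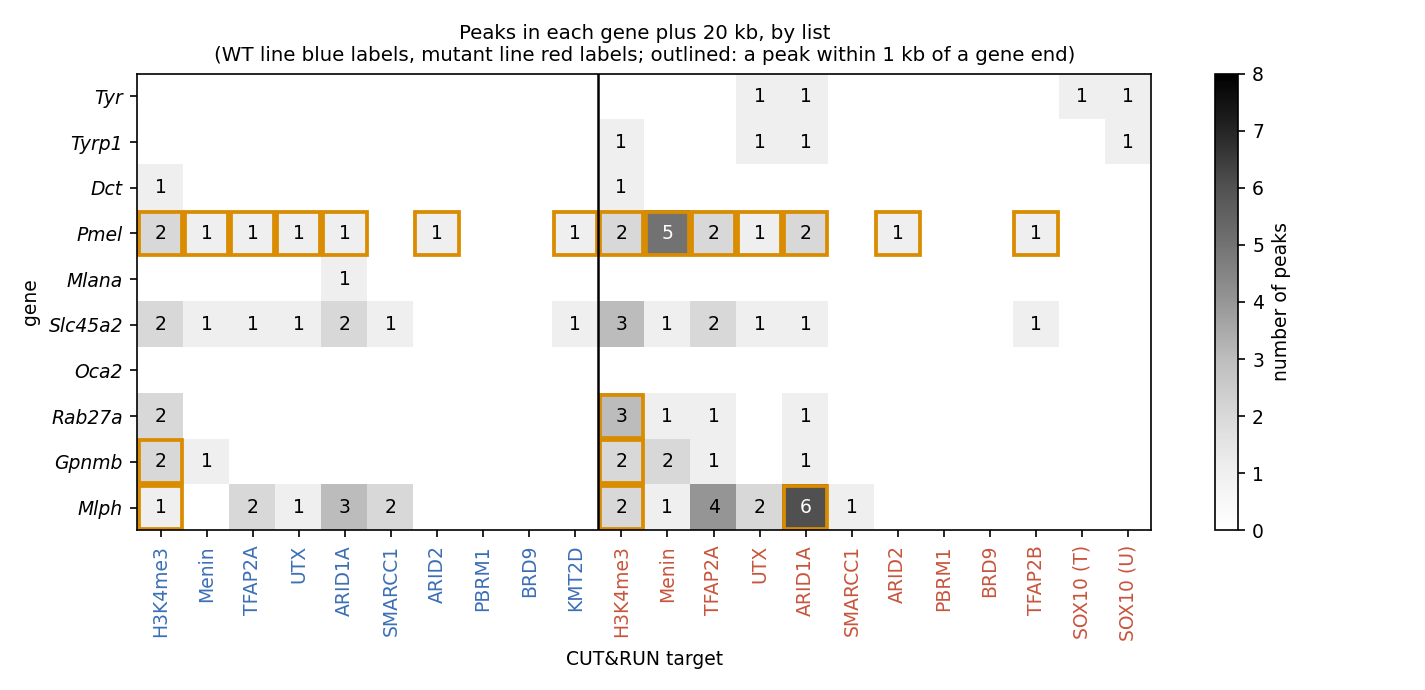
Number of peaks in each gene plus 20 kb (rows) in each of the 22 lists (columns, WT labels in blue left of the line, mutant labels in red right of it); an orange outline marks a peak within 1 kb of a gene end. The SOX10 peaks lie at Tyr and Tyrp1, and Pmel carries outlined peaks in 7 WT and 7 mutant lists.

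At Tyr (chr7, 87424771 to 87493512, minus strand) every peak lay at a single distal site in the mutant line. The site covered 87507996 to 87508690, with summits 14806 to 14873 bp upstream of the start, outside any protein-coding gene. UTX had a fold enrichment of 39.0 there, SOX10 antibody T 36.3, SOX10 antibody U 42.7 and ARID1A 24.2. Fold enrichment is the authors' value for the summit over the local background. It is read here within a list, apart from the H3K4me3 ratios given below. The site ranked 8 of 1163 peaks for SOX10 T, 9 of 6358 for SOX10 U, 120 of 9707 for UTX and 2910 of 25385 for ARID1A. It was thus among the strongest sites of both SOX10 lists and in the upper part of the ARID1A list. Of the 8 SOX10 U peaks ranked above it, 4 overlapped a WT peak, and among the 2662 SOX10 U peaks that overlapped none, the Tyr site ranked 5.

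None of the 10 WT lists had a peak from 87247184 to 87926304, a stretch of 679 kb around Tyr in which the mutant line had 5 peaks, 4 of them at this site. Scaled to the depth of the WT UTX list, the mutant UTX summit fell from 44.2 to 28.0 fragments and its −log10 p was 59.9, while the lowest −log10 p in the WT UTX list was 4.08. The ARID1A summit fell from 27.6 to 14.9 fragments with a −log10 p of 29.2, against a lowest WT value of 3.77. Both values were above those of the weakest called WT peaks. This scaling adjusts depth only, and why the WT lists lack the site was not tested. SOX10 was profiled in the mutant line, so its occupancy in the WT line is unknown here. Neither line had an H3K4me3 peak in the Tyr window.

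Tyrp1 (chr4, 80834123 to 80851736, plus strand), which encodes a melanosomal oxidase related to tyrosinase, had a weaker site of the same makeup. It lay at 80819654 to 80819952, with summits 14326 to 14351 bp upstream of the gene, and was called in the mutant line for UTX (11.3), ARID1A (9.33) and SOX10 U (9.07) but not for SOX10 T. The SOX10 U peak ranked 1654 of 6358. At the WT depth the UTX peak kept 7.59 of 12.0 fragments and a −log10 p of 14.0, and the ARID1A peak 5.43 of 10.1 fragments and 9.69, again above the lowest WT values of 4.08 and 3.77. A mutant H3K4me3 peak lay 12958 bp past the other end of the gene (80864571 to 80864895, fold enrichment 6.73 in a list with a median of 16.5). The WT line had no peak over 1394 kb around Tyrp1, from 79515388 to 80909015, where the mutant line had 4.

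SOX10 U reached 2 member loci, Tyr and Tyrp1 (20.6% of all genes), and SOX10 T 1, Tyr (5.26%). Both antibodies had 0 members with a gene-end peak (3.83% of genes for U, 0.991% for T). The joint pattern was common in the SOX10 U list: UTX overlapped 60.7% of its peaks (Wilson 95% interval 59.5 to 61.9), ARID1A 74.7% (73.6 to 75.8) and both together 54.9% (53.7 to 56.1). Both without any WT peak was less common, at 775 of 6358 peaks (12.2%, interval 11.4 to 13.0). Such a site lay within the gene plus 20 kb of 535 protein-coding genes (2.44%), and a site that also had SOX10 T near 167 genes (0.763%). Tyr is in the second group and Tyrp1 in the first alone. Intervals cover counting error only.

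**Figure D3:**
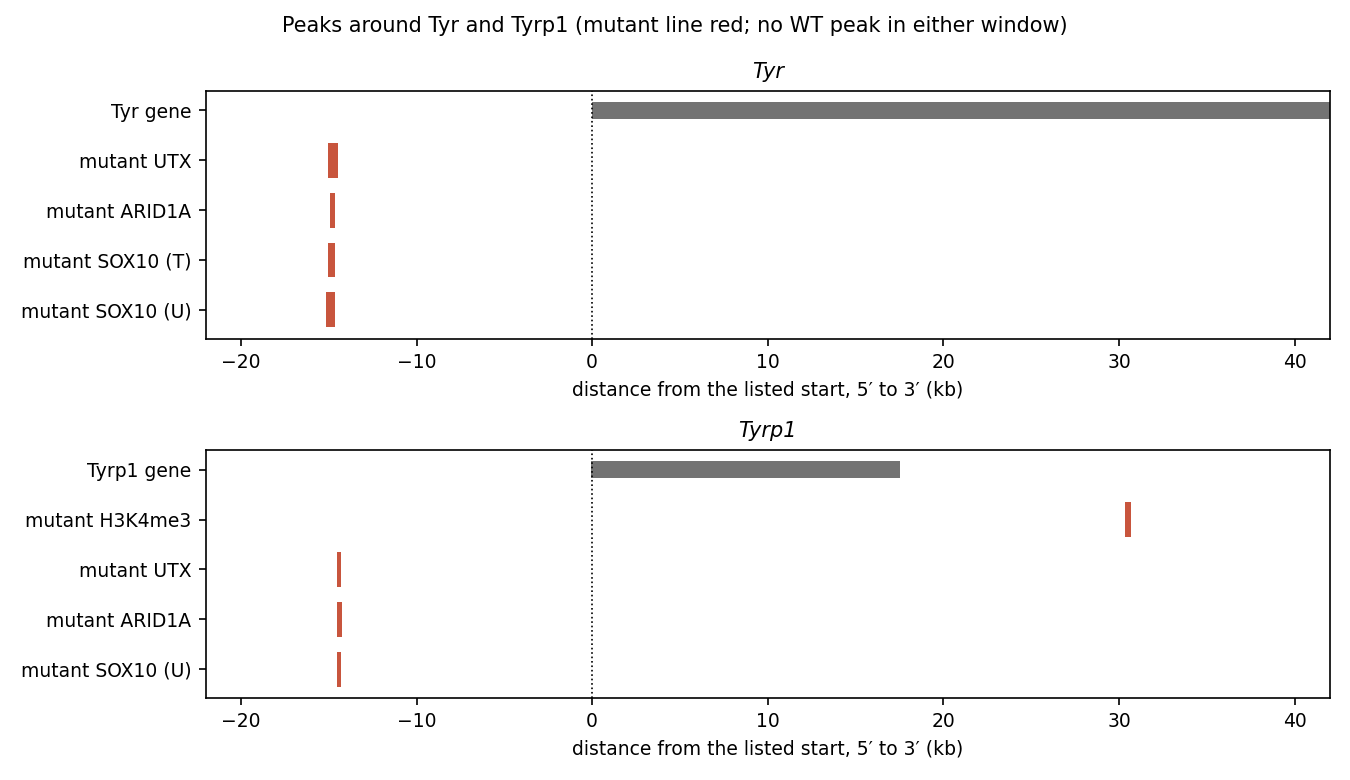
Positions of all peaks (bars, mutant line in red) by list in the windows of Tyr and Tyrp1, as distance in kb from the listed start in the direction of transcription; the grey bar is the gene, drawn for Tyr up to the edge of the plot. UTX, ARID1A and SOX10 peaks stack upstream of both genes, at summits 14806 to 14873 bp from the Tyr start and 14326 to 14351 bp from the annotated end of Tyrp1, which lies just before its listed start, and neither window holds a WT peak.

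Dct (chr14, 118012790 to 118052246, minus strand), which encodes dopachrome tautomerase, had neither this kind of site nor any difference in calls between the lines. Its only locus peaks were H3K4me3 at 118001182 to 118002421, beyond the far end of the gene, with summits 10937 bp from it in the WT line (fold enrichment 10.5) and 11042 bp in the mutant line (10.7). No other protein-coding gene lay in the window. Both peaks were below the median of their list, 11.7 for WT and 16.5 for mutant. The 3 enzyme genes with an M-box thus had peaks at a distance and none at their starts.

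Pmel (chr10, 128695888 to 128720238), which encodes the fibril protein of the melanosome, had the most gene-end lists of the members, 7 in each line. Pmel and its neighbours cannot be told apart at these peaks. Its annotated low end lies 396 bp inside Rab5b (128677170 to 128696284), a gene of endosomal traffic, and Cdk2, a cell cycle kinase gene, lies within the Pmel span up to 128705051. The first site, 128694778 to 128696805, carried H3K4me3 (fold enrichment 23.3 WT, 60.1 mutant), UTX (39.4 and 13.4), ARID1A (11.0 and 13.1) and ARID2 (13.5 and 18.6). KMT2D had 26.7 there in WT cells and TFAP2B 7.66 in mutant cells. The summits of KMT2D, UTX, ARID1A, ARID2 and TFAP2A were nearer to the end of Rab5b than to that of Pmel, while the H3K4me3 summits lay 40 bp (WT) and 34 bp (mutant) inside the Pmel end and so within both genes. A site at 128703613 to 128705345, nearest to the end of Cdk2, held H3K4me3 (14.1 and 36.8) and, in the mutant line, Menin (9.62) and TFAP2A (5.60). From 128705346 to the high end of Pmel, 14.9 kb, there was no peak in any of the 22 lists. Without Pmel, an alternative chosen after seeing the data, H3K4me3 gene ends numbered 2 in WT cells and 3 in mutant cells, and locus peaks 24 and 42.

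Over the 22 lists, the genes most like Pmel in the strength rank of their gene-end peaks were Rab5b (Pearson r 1.00, the same peaks), Dnm2 (0.977), which encodes a dynamin, and Xpo1 (0.950), which encodes a nuclear exporter. Each had gene-end peaks in 14 lists. The lists share cells and depth, so these values are a description. No other member had gene-end peaks in as many as 5 lists.

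Mlana (chr19, 29697541 to 29708447), which encodes the melanosomal antigen Melan-A, was the member with a WT peak and no mutant peak. That peak was ARID1A at 29679029 to 29679327, 18407 bp from the gene, with a fold enrichment of 7.70 in a list with a median of 9.13. No peak of any list lay over the gene.

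The transporter genes differed from each other. Oca2 (chr7, 56239593 to 56536518), which encodes a melanosomal anion channel and is 296926 bp long, had 0 peaks in all 22 lists, as had 23.6% of protein-coding genes. The stretch without peaks around it ran over 2283 kb in WT cells and 2236 kb in mutant cells. Slc45a2 (chr15, 11000721 to 11029233), which encodes a melanosomal transporter, had no gene-end peak and none over the gene, but 9 locus peaks in each line over all lists. A site at the end of Amacr, 18380 to 19034 bp away, held TFAP2A (18.2 WT, 31.5 mutant), Menin (8.70 and 12.9) and H3K4me3 (10.1 WT, 8.29 and 6.10 mutant). A second, by Rxfp3, held H3K4me3 (6.48 and 14.6) and mutant TFAP2A (6.79).

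The third Slc45a2 site, at 11042745 to 11043117 and 13692 to 13742 bp beyond the gene, was the only member site with KMT2D besides the Pmel and Rab5b end. In the WT line it carried ARID1A (17.3), SMARCC1 (14.3), UTX (11.5) and KMT2D (5.80), and in the mutant line ARID1A (13.6) and UTX (7.83). Its nearest gene end was that of Rxfp3, 4957 to 5007 bp from the summits. SMARCC1 was not called in the mutant line. At the depth of the mutant SMARCC1 list the WT peak kept 5.91 of 15 fragments and a −log10 p of 12.9, against a lowest mutant value of 4.598. This fold enrichment of KMT2D was below the median of its list, 9.30.

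Gpnmb (chr6, 49036518 to 49058182, plus strand), which encodes a transmembrane glycoprotein related to Pmel, had the highest ratio of mutant to WT H3K4me3 fold enrichment among the members called in both lines. The WT peak had a fold enrichment of 4.48 and was 794 bp wide, above 12.4% of peaks in its list. The mutant peak had 34.6 and was 2726 bp wide, above 91.3%. At the WT depth the mutant summit kept 22.04 of 41.1 fragments. Over the 10668 genes called in both lists, the median gene had 1.61 times the WT fold enrichment in the deeper mutant list, and the ratio at each member was set against that median. At Gpnmb the ratio was 7.73, 4.79 times the median and above 99.9% of genes. The mutant line also had Menin (4.25) and ARID1A (7.21, 3213 bp into the gene) peaks inside Gpnmb, which the WT line lacked. The Menin peak was weak, above 11.5% of peaks in its list. At the WT depth its −log10 p was 3.97, against a lowest WT value of 3.91, so its absence from the WT list says little. The H3K4me3 peaks 15904 and 16191 bp beyond the gene lay at Malsu1, with fold enrichments of 10.9 and 23.5.

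The WT Gpnmb peak was weak, with a −log10 q of 4.23, and would be lost at a threshold of 5. It was the only WT peak of any list in 470 kb around Gpnmb, from 48602914 to 49073362. The ratio was at least 2 times the median at 1 of the 3 members called in both lists, Gpnmb (4.27% of genes), and at most 1/2 of it at 0 members (4.07%). This limit was set after the values had been seen. At Mlph the ratio was 3.09, 1.92 times the median and above 94.8% of genes, over a WT peak above 21.6% of peaks in its list. The Pmel and Rab5b end had 2.59, 1.60 times the median and above 89.4%.

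**Figure D4:**
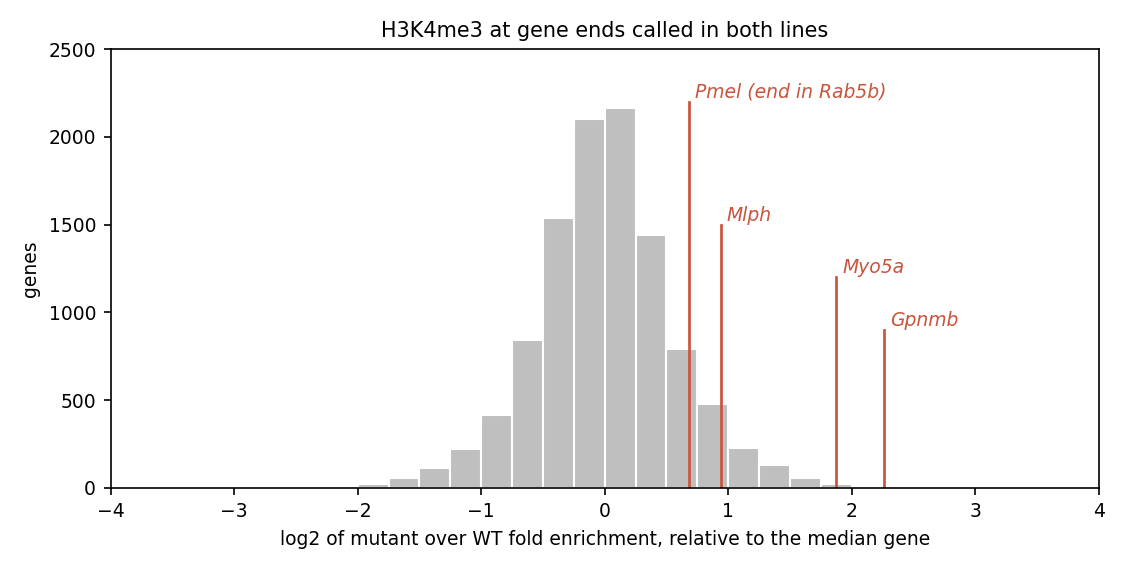
Histogram (grey, number of genes on the y axis) of the log2 ratio of mutant to WT H3K4me3 fold enrichment at gene ends called in both lines, relative to the median gene, for 10668 genes; red lines mark 3 members and Myo5a. Gpnmb lies furthest right, above 99.9% of genes, and all 3 members lie right of the median gene at 0.

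Both genes of melanosome transport had H3K4me3 at the start in the mutant line, and Mlph had it in the WT line too. Rab27a (chr9, 73044810 to 73097623, plus strand), a small GTPase on the melanosome surface, had an H3K4me3 peak at 73044280 to 73045005 in the mutant line and none there in the WT line, as had 5.09% of all genes (0.543% the other way). The peak covered the first listed start, 73044810, and not the second, 73064148. It was weak, with a fold enrichment of 7.72, above 25.7% of peaks in its list. At the WT depth it kept 4.49 of 8.39 fragments and a −log10 p of 7.64, against a lowest WT value of 3.46. The neighbours on both sides had H3K4me3 in both lines, with fold enrichments of 17.3 and 21.8 at Pigb and 22.9 and 31.0 at Rsl24d1. The WT peak at Pigb lay 4004 bp from Rab27a, so that H3K4me3 was not absent from its surroundings. Menin, TFAP2A and ARID1A peaks in the mutant Rab27a window all lay by Rsl24d1.

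Mlph (chr1, 90915024 to 90951142, plus strand), the linker between Rab27a and myosin Va, had the most locus peaks of the members and a chain of sites upstream. H3K4me3 at its start had a fold enrichment of 5.68 over 336 bp in WT cells and 17.6 over 1398 bp in mutant cells. A weak ARID1A peak (4.38, above 7.73% of peaks in its list) lay at the start in the mutant line. Its −log10 q was 3.24, so it would be lost at a threshold of 5. Upstream, sites lay 18023 to 18250 bp, 14334 to 14504 bp, 10744 to 10771 bp and 5089 to 5366 bp from the gene. The farthest held ARID1A (9.40 WT, 7.13 mutant), TFAP2A (9.83 and 5.60) and WT SMARCC1 (8.95). At the next, ARID1A had 4.30 in WT cells and 13.5 in mutant cells, which also had UTX (6.94).

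The third upstream site, 90904100 to 90904390, was called in the mutant line alone, for ARID1A (10.3), TFAP2A (8.44) and UTX (7.17). At the nearest site, 90909394 to 90910109, ARID1A had 12.2 in WT cells and 25.7 in mutant cells, and SMARCC1 6.27 and 4.72. UTX (6.20) was called there in the WT line, and H3K4me3 (4.09) and Menin (4.66) in the mutant line. Inside the gene, 3274 and 3278 bp past the listed start, TFAP2A (16.9) and ARID1A (7.77) were called in the mutant line alone. The last site, on the Rab17 side, had TFAP2A in both lines (8.71 and 10.2). ARID1A was thus called in both lines at 3 of the upstream Mlph sites. The third site, the site inside the gene and, with the weak peak described above, the start had it in the mutant line alone.

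**Figure D5:**
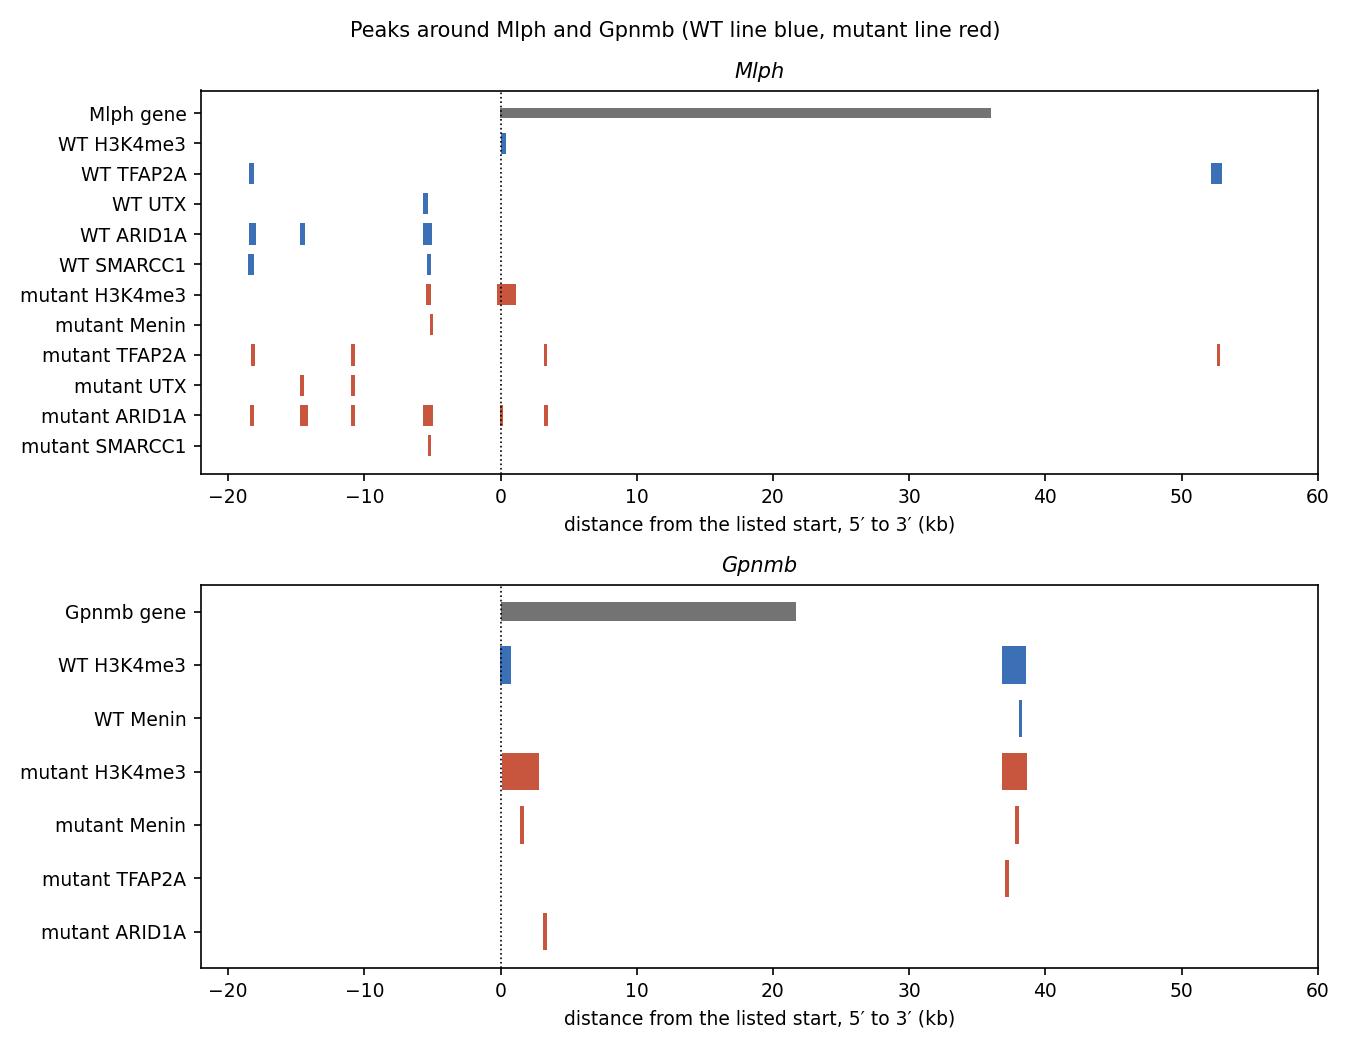
Positions of all peaks (bars, WT in blue and mutant in red) by list in the windows of Mlph and Gpnmb, as distance in kb from the listed start in the direction of transcription; the grey bar is the gene. Mlph has upstream ARID1A sites in both lines and a mutant-only site 10744 to 10771 bp upstream of the gene's annotated end, which lies just before the listed start, and the H3K4me3 bar at the Gpnmb start is 794 bp wide in WT cells and 2726 bp in mutant cells.

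Merged over lists, the member loci held 25 sites, 15 called in both lines, 9 in the mutant line alone and 1 in the WT line alone. Of all sites in a protein-coding gene plus 20 kb, 58.7% were called in both lines, 25.9% in the mutant line alone and 15.4% in the WT line alone. These shares use 12 mutant and 10 WT lists, so TFAP2B and SOX10 sites had no WT list and KMT2D sites no mutant list. Each of the 9 mutant-only member sites had a peak of a target profiled in both lines. Of the 9 mutant-only sites, 7 had a member as the gene with the nearest end and 2 had another gene. Of the 15 shared sites, 6 were nearest to a member and 9 to another gene. The split by nearest gene was not counted over all protein-coding genes, so it describes these loci only. Of the 10 WT H3K4me3 peaks in the member loci, 10 overlapped a mutant H3K4me3 peak (91.7% of all WT H3K4me3 peaks), and 8 did so with a reciprocal overlap of 50%.

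The number of genes with H3K4me3 at a gene end varied over the other lists of the pathway, and is to be read against 49.3% of all genes for WT and 53.8% for mutant. H3K4me3 lay at a gene end of 19 of 20 genes of melanosome biogenesis and sorting in each line, all but Bloc1s5. Those with the most gene-end lists were Ap3d1 (13), an AP-3 adaptor subunit gene, Hps6 (12), of the BLOC-2 complex, and Bloc1s1 (11), of the BLOC-1 complex. Bloc1s1 had 5.70 in WT cells and 21.2 in mutant cells, 2.30 times the median gene. Of 7 transport and transfer genes, 4 had H3K4me3 in WT cells and 5 in mutant cells, with Rab27b added (5.41), which is near those shares, and Mreg (7 lists) and Exoc2 (5 lists) stood highest.

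Myo5a, the motor that Rab27a and Mlph recruit, had a fold enrichment of 4.12 in WT cells and 24.4 in mutant cells. Its ratio was 3.67 times the median gene and above 99.7% of genes. The WT value was below that of the weak WT Gpnmb peak (4.48), so this ratio also rests on a weak WT peak. Of 8 channel and transporter genes, H3K4me3 marked a gene end of 2 in each line, Tpcn2 (10 lists of any target) and Atp7a (5), the copper pump that supplies tyrosinase. Slc7a11, the cystine importer gene, had 2 gene-end lists, neither of them H3K4me3, but had an H3K4me3 peak within 5 kb in each line. Of 7 signalling genes found, 3 had it in the WT line, Atrn (12 lists), Kitl (7) and Mc1r (6), the melanocortin receptor gene. Pomc, which encodes the precursor of its ligand, was added in the mutant line (13.3), with no WT H3K4me3 peak within 5 kb. Of 10 regulators, 8 had it in WT cells and 9 in mutant cells, with Sox10 added. Tfe3 (10 lists), Snai2 (8), and Pax3 and Usf1 (7 each) stood highest.

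Set beside the melanoma label, Mitf had H3K4me3 at a gene end in both lines (10.5 WT, 19.9 mutant), at 1.17 times the median gene. Tyr, Tyrp1, Dct, Mlana, Slc45a2, Oca2, Kit, Ednrb, Edn3 and Tfap2a had none at a gene end in either line. Sox10, Rab27a and Pomc had it in the mutant line alone. The Pmel and Rab5b end, Gpnmb, Mlph, Mc1r, Kitl, Atrn, Pax3, Tfap2b, Lef1, Tfe3, Tfeb, Usf1 and Snai2 had it in both lines. The WT and mutant counts were 3 and 4 of 10 members, 3 and 4 of 7 signalling genes, and 8 and 9 of 10 regulators. All genes had 49.3% and 53.8%. Pigment cell identity of the lines was not tested by these calls. For markers of other cell types, the WT and mutant shares of all genes are again 49.3% and 53.8%. H3K4me3 lay at 2 of 8 keratinocyte markers in each line (Krt10 and Lor, not Krt5 or Krt14), 0 and 1 of 8 blood cell markers (Spi1) and 1 of 6 endothelial markers in each. It lay at 4 of 8 fibroblast markers in each line (Col1a1, Col3a1, Pdgfra and Pdgfrb, not Col1a2, Dcn, Lum or Thy1). Of 6 Schwann cell markers, 2 had it in WT cells and 3 in mutant cells. These fibroblast and Schwann cell counts are near the share of all genes. The part of other cell types in the differences between lines was not tested.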

How the data were processed

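Deposited MACS2 narrowPeak lists of 22 CUT&RUN libraries were used, 10 of line 971 (Kmt2d WT) and 12 of line 493 (Kmt2d mutant), with 197727 peaks. The 2 rabbit IgG samples were not analysed here, and whether they served as control in peak calling is not given in the sources used here. Bowtie2, MACS2, FastQC and MultiQC on mm10 are named in the submitters' processing notes. Their versions, settings and control are not given in the sources used here. The deposited values of a peak are its fold enrichment, a ratio computed by the authors, its −log10 p, its −log10 q, and a score that equals 10 times the latter cut to a whole number. These values are used to describe and rank peaks within a list. H3K4me3 at gene ends is the exception, where mutant fold enrichment was divided by WT fold enrichment. That ratio carries the depth of both lists. Setting it against the median gene adjusts for a shared factor only, and ratios over weak WT peaks are uncertain.

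Genes were those of the RefSeq table of GRCm38.p6. A gene-end peak overlapped 1 kb around either gene end, and a locus peak the gene plus 20 kb. Sites are overlapping peaks of any list merged, and positions are counted from 1. The depth used by the caller was reconstructed from fold enrichment and −log10 p and lay between 0.862 M and 1.20 M (M for mega) for WT lists and between 0.405 M and 2.21 M for mutant lists. These levels assume the caller's default mouse genome size, which does not affect ratios between lists. For equal depth, the deeper list had its summit fragments and background reduced in proportion, and peaks under the lowest −log10 p of the other list were dropped. Reduced fragments were not rounded down to whole numbers. Counting and depth steps were tested on simulated data. Promoter windows hold 250 bases before and 50 after a start, and Pmel, Mlana and Slc45a2 were not matched there. Of the pathway and marker genes, Asip was not matched.

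The members and lists were chosen with earlier results of these data known. All members are named. Pathway genes are named where H3K4me3 marked an end in 1 line with none within 5 kb in the other, or for the 3 genes per list with the most gene-end lists. For members with gene-end peaks in at least 5 lists, the 3 genes with the highest Pearson r of within-list percentile were named. Bloc1s5, Rab27b, Rab5b, Cdk2, the neighbouring genes and the marker genes were named after their values were seen. The same holds for Mitf, Kit, Ednrb, Edn3, Slc24a5, Slc24a4, Trpm1, Tfap2a, Tfap2b, Lef1 and Tfeb. Alternatives changed window, flank, threshold, targets, depth and ownership of peaks. Scripts ran in Python 3.11.15 with pandas 2.3.3, NumPy 2.4.6, Matplotlib 3.10.9 and SciPy 1.17.1.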

Additional observations from a re-analysis of the deposited data

How the results depend on the processing

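Of 63 alternative counts, 53 stayed within 1.5 times the reported count and 10 did not. With a flank of 10 kb, locus peaks fell to 14 in WT cells and 27 in mutant cells, and SOX10 was at 0 members with antibody U and 0 with T, since the Tyr and Tyrp1 sites lie farther out. With 50 kb, they numbered 57 and 88, and SOX10 T reached 2 members. Without peaks nearer to another gene, the WT line had 18 locus peaks, and the mutant line 37. Without H3K4me3, any gene-end peak was at 1 member in WT cells and 2 in mutant cells. At a −log10 q of at least 5, H3K4me3 gene ends numbered 2 and 4 and locus peaks 27 and 41. In all alternatives of the locus count the mutant line had more peaks than the WT line. These alternatives recount the same lists, most of them deeper in the mutant line, and are not independent of each other. Of all genes, 42.9% had more locus peaks in the mutant line and 20.6% fewer.

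No paired analysis was possible because each line and target had 1 library. The depth of the libraries limits weak sites: at the lowest called −log10 p, absence from a list does not show absence of the mark. Copy number of the lines and the IgG signal were not analysed here, and their part in any difference was not tested.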

Other observations

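Beyond 20 kb, a further SOX10 site lay by Mlph. With a flank of 50 kb, SOX10 T (fold enrichment 18.7, rank 61 of 1163) and SOX10 U (24.4, rank 99 of 6358) had peaks 24002 and 24012 bp past the end of the gene, at 90975013 to 90975363 on chromosome 1. That region was overlapped by peaks of 12 of the 22 lists, unlike the Tyr site, which was overlapped by 4.

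Among the Schwann cell markers, which share a neural crest origin with pigment cells, Ngfr, a neural crest receptor gene, had H3K4me3 in the mutant line alone (18.5), and its locus held 0 WT and 3 mutant peaks of the 9 targets. S100b ran the other way, with H3K4me3 of 7.96 in WT cells and 5.09 in mutant cells, 0.396 times the median gene, and 18 and 10 locus peaks. These genes were picked after their values were seen.

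Besides the member Oca2, some pathway genes had no locus peak of the 9 targets in either line, against 23.8% of all protein-coding genes. Of 7 signalling genes they were the receptor genes Kit and Ednrb and the ligand gene Edn3. Of 8 channel and transporter genes they were Slc24a5 and Slc24a4. Every gene of the biogenesis, transport and regulator lists had such a peak in WT or mutant cells. The named genes were picked for having none. Trpm1, whose intron hosts a microRNA of the pigment lineage, had 14 WT and 9 mutant locus peaks and no gene-end peak.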
